A study of Drosophila melanogaster with 2 samples.

Results

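MicroRNA genes encode hairpin precursors of short RNAs that repress messenger RNAs, and the sites of the chromodomain protein Corto around these genes were described here in Drosophila melanogaster embryos. All genes of the Ensembl annotation with a precursor miRNA transcript on the 6 main chromosome arms were taken, which gave 260 of 17683 annotated genes. The hairpins were 50 to 174 bp long (median 92 bp), and mature products were found in RefSeq for all 260. The method was ChIP-seq, the sequencing of DNA fragments that an antibody pulls down together with a protein. The flies carried an inserted corto transgene fused to GFP at the C-terminal end of the protein, and the antibody recognised GFP. Whole embryos of mixed sex aged 0 to 24 h, with no treatment named in the labels, gave 2 biological replicates of 1 group, so no conditions could be compared and no test between groups was possible. A peak from whole embryos cannot tell occupancy in few cells apart from weak occupancy in many.

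In flies a miRNA gene is either part of a longer primary transcript of its own, or lies inside a host gene and is cut out of the host transcript. The nuclease Drosha, with its partner Pasha, releases the hairpin in the nucleus, Dicer-1 cuts it in the cytoplasm, and an Argonaute protein carries the mature strand to messenger RNAs that pair with its seed (bases 2 to 8). The annotated start of a miRNA gene is the start of the hairpin, not the place where transcription begins, so a promoter can lie kilobases upstream. Corto itself belongs to the Enhancers of Trithorax and Polycomb, which act with both the activating and the silencing chromatin regulators of development.

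Peak positions, summits and peak signals are those of the deposited lists on dm6. No source used here gives the scale of the signal, so it serves to describe and order the peaks of a list and nothing more. The optimal set is the list of 2644 peaks that the authors selected by the irreproducible discovery rate (signal 81.2 to 1209, median 113). Both replicates held a summit within 200 bp for 2551 of them (96.5%), so not every member was seen in each replicate. The pooled list of 30000 entries reaches down to a signal of 19.6 and holds background as well as peaks. The lists carry no read counts, so depth is unknown.

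The mature sequences of miRNAs with strong or well-known sites, and of mir-9c, a relative of mir-9a with no optimal site, are shown first, from RefSeq on the dm6 assembly and 5′ to 3′, with the seed in capitals. They are printed because miRNAs with the same seed pair with overlapping sets of messenger RNAs. Each is the first product that RefSeq lists for the gene, from a single arm of the hairpin. Whether that arm gives the main product was not assessed.
mir-279: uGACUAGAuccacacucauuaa
mir-996: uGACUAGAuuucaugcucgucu
mir-282: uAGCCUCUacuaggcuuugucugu
mir-9a: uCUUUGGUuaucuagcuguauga
mir-9c: uCUUUGGUauucuagcuguaga
mir-2a-1: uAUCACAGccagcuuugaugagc
mir-2b-2: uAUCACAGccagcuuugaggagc
mir-11: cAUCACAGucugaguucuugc
mir-275: uCAGGUACcugaaguagcgcgcg
mir-276a: cAGCGAGGuauagaguuccuacg
mir-ban: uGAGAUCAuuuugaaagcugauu
mir-let7: uGAGGUAGuagguuguauagu

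By the first product that RefSeq lists for each gene, and leaving out the product of the other arm, the 260 genes carried 224 different seeds, and 17 seeds were shared by 2 or more genes. The largest family, with seed AUCACAG (the K box family of mir-2, mir-6, mir-11, mir-13 and mir-308), had 13 genes at 7 loci. Of these, 5 genes at 3 loci had an optimal summit within 5 kb, namely mir-2a-1, mir-2a-2 and mir-2b-2 in one cluster, mir-11 and mir-308. The seed GACUAGA was shared by mir-279, mir-996 and mir-286, of which the first pair had a summit and mir-286 did not. Of the mir-9 family (CUUUGGU), mir-9a had an optimal summit within 5 kb and mir-9b and mir-9c had none. Of the AUUGCAC family of 6 genes, which includes mir-92a and mir-310, only mir-92b had one. Genes of these families thus differed in whether a site lay nearby. The families named were taken from those with a member near an optimal summit, so families with none are not shown. Of all 260 genes 18.5%, and of all miRNA loci 20.1%, had an optimal summit within 5 kb. At such shares, families with and without sites among their members are no result about seeds.

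Corto-GFP summits were rarely on the hairpins. An optimal summit lay within 500 bp of 9 of the 260 gene starts (3.46%, 95% Wilson interval 1.83 to 6.45). The same window around the starts of the 13945 protein-coding genes held a summit in 8.20%, and 1.89% of the bases of the arms lay that close to a summit. In the pooled list 68 miRNA genes had a summit within 500 bp (26.2%, interval 21.2 to 31.8), beside 36.2% of protein-coding gene starts and 18.7% of bases. The miRNA share was thus below that of coding gene starts in both lists, and the intervals treat clustered genes as independent, which they are not. Being below coding genes was not particular to miRNA genes. Other ncRNA genes were at 4.64% for optimal and 29.6% for pooled summits, and snoRNA genes at 0.743% and 29.0%. The tRNA genes were lower than coding genes for optimal summits (5.52%) but higher for pooled ones (41.7%). Without replicate 1, the strongest peaks of replicate 2, as many as in the optimal set, lay within 500 bp of 5 miRNA genes (1.92%).

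Within 5 kb the picture was close to the background. Optimal summits lay within that distance of 48 miRNA genes (18.5%, interval 14.2 to 23.6), beside 23.0% of protein-coding gene starts and 14.0% of bases. For pooled summits the count was 203 (78.1%, interval 72.7 to 82.7), beside 72.4% of coding gene starts and 63.3% of bases. Other short RNA genes had similar shares of optimal summits within 5 kb, at 20.7% of 290 tRNA genes and 24.5% of 269 snoRNA genes. The share of 2520 other ncRNA genes was 20.8%. A count near such values is no result about miRNA genes as a class, and the description below is therefore of the individual loci.

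**Figure D1:**
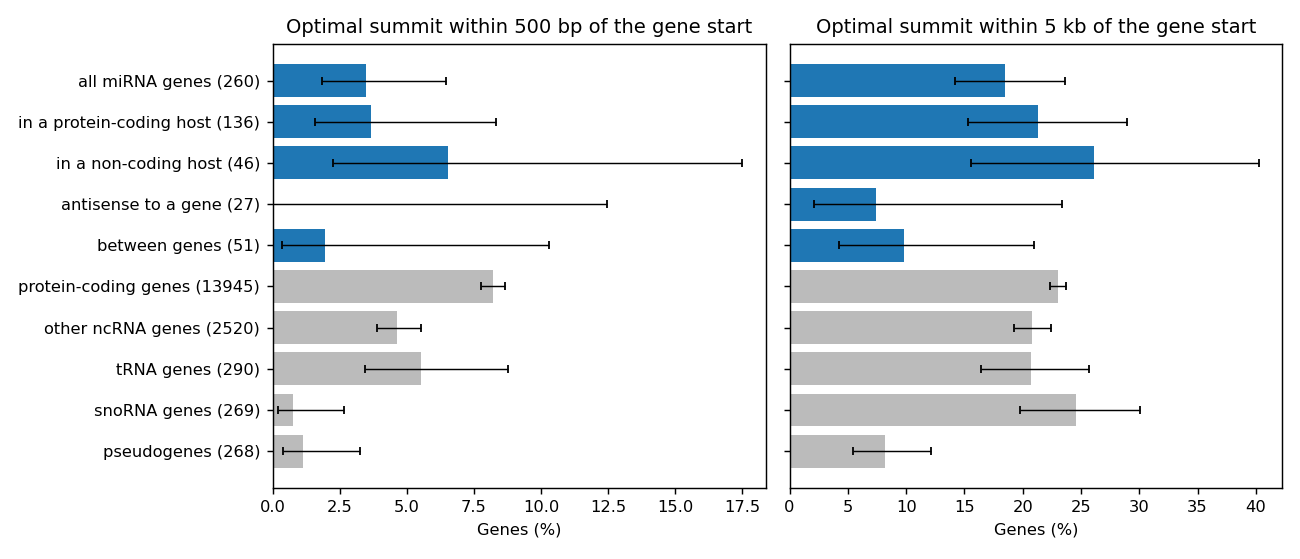
Percent of genes with an optimal Corto-GFP summit within 500 bp (left) or 5 kb (right) of the annotated gene start, for miRNA genes by the kind of host (blue) and other gene classes (grey), with the number of genes in brackets and 95% Wilson intervals as bars. Within 500 bp all miRNA genes were at 3.46% and protein-coding genes at 8.20%, while within 5 kb the intervals of all miRNA genes and of protein-coding genes overlapped.

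The 9 genes with a summit within 500 bp were mir-275, mir-967, mir-9374, mir-14, mir-282, mir-92b, mir-954, mir-9370 and mir-9377. Signals of these summits had a median of 90.9, below the median of 113 of the whole set, and the highest was 181. The strongest lay 423 bp downstream of the start of mir-9377, in an intron of Tis11 (X 12665640), with a signal of 90.2 in replicate 1 and 92.9 in replicate 2. A second one, 399 bp upstream of mir-9374 in Hr39, a nuclear receptor gene (2L 21237902), had a pooled signal of 158. Its replicates differed, with 122 in replicate 1 and 28.7 in replicate 2. Only 2 of the 9 summits were also within 500 bp of a protein-coding transcription start site (TSS). These were the summit 163 bp upstream of mir-954 on chromosome 4, 68 bp from the TSS of mav, a gene for a ligand of the TGF-beta family, and the summit 80 bp downstream of mir-9370, 270 bp from the TSS of FucT6, a fucosyltransferase gene. Just inside the 500 bp limit was mir-967 at 433 bp, and the nearest genes outside it were mir-305 at −559 bp and mir-3643 at −613 bp, where a minus sign means that the summit is upstream.

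Neighbouring miRNA genes within 10 kb of each other were joined into 199 loci, so that a cluster counts once. Of these, 26 were clusters that together held 87 genes. An optimal summit lay within 5 kb of 40 loci (20.1%, interval 15.1 to 26.2), namely 8 of the 26 clusters and 32 of the 173 single genes. At 16 loci there were 2 or more summits, and 46 loci had none even in the pooled list. The largest cluster, of 12 genes from mir-972 to mir-979 on the X chromosome, had pooled summits near every gene but no optimal one. The 8-gene cluster of mir-309, mir-3, mir-286, mir-4, mir-5 and 3 copies of mir-6, known for clearing maternal messenger RNAs in early embryos, likewise had none in the optimal set. Its strongest pooled summit lay 3224 bp upstream of mir-309 with a signal of 26.4. The 6 genes from mir-959 to mir-964 on 2L had no pooled summit within 5 kb.

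**Figure D2:**
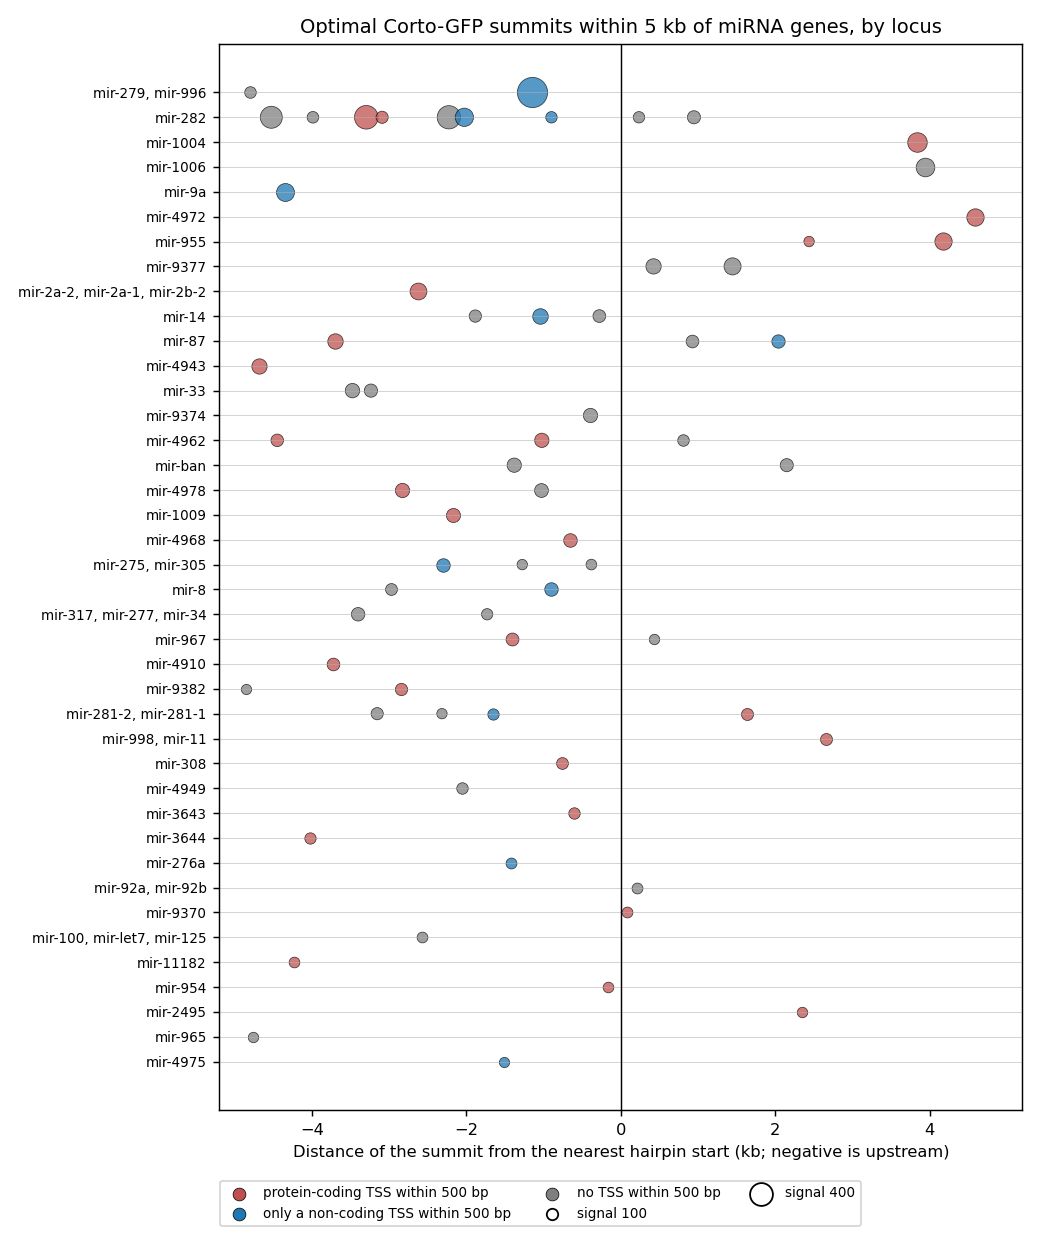
Position of every optimal summit within 5 kb of a miRNA gene, by locus, as the distance in kb from the nearest hairpin start (negative is upstream); loci are ordered by their strongest summit, the area of a point stands for the pooled signal, and the colour shows which kind of TSS lay within 500 bp. The 69 summits were upstream of the nearest hairpin in 50 cases, and mir-282 had the most (9).

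In all, 69 distinct optimal summits lay within 5 kb of a miRNA gene. Of these, 50 were upstream of the nearest hairpin start and 19 downstream, with a median offset of −1412 bp. Around miRNA genes with a non-coding host, 21 were upstream and 3 downstream, and around those with a protein-coding host 22 and 12. The sides were not counted for other gene classes, so no excess particular to miRNA genes is shown. The median signal was 124, beside 113 for all optimal summits. Among the 100 strongest of all 2644 summits were 4 of the 69, which ranked 5 at mir-279 and 34, 37 and 55 at mir-282. The mir-282 locus alone held 9 of the 69 summits, 7 of them upstream, so these values do not describe independent loci. A protein-coding TSS was within 500 bp of 26 of the 69 (37.7%, interval 27.2 to 49.5), beside 43.7% of all optimal summits. Of the other 43 summits, 11 were within 500 bp of the TSS of a non-coding RNA gene (25.6%), beside 76 of the 1488 such summits of the whole set (5.11%). Many of these RNAs are annotated hosts of the miRNAs, and RefSeq names 4 of them as primary miRNA transcripts. Others, such as lncRNA:CR45949 near mir-87 and lncRNA:CR44676 near mir-9a, do not host the miRNA. A host TSS near a hairpin is in part fixed by choosing summits near miRNA genes.

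Both replicates held a summit within 200 bp for 68 of the 69. The exception was the summit 2038 bp downstream of the start of mir-87 (2L 9948478, pooled signal 137), with 93.9 in replicate 2 and no entry in replicate 1. The optimal set was made from these replicates, so that most summits recur is built in. Some summits differed widely between the replicates. At mir-276a the summit 1419 bp upstream had a signal of 16.3 in replicate 1, where it ranked 17025, and 91.4 in replicate 2, where it ranked 510. At mir-4968 the summit 663 bp upstream, with a pooled signal of 142, had 25.0 in replicate 1 and 91.9 in replicate 2.

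**Figure D3:**
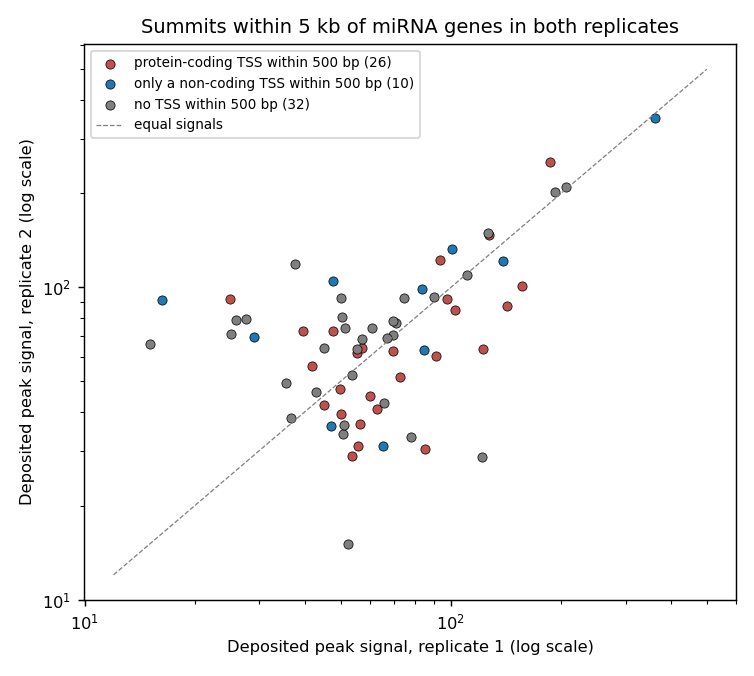
Deposited peak signal in replicate 1 (x) and replicate 2 (y), on log scales, of the 68 optimal summits near miRNA genes with a summit within 200 bp in both replicates, coloured by the kind of TSS within 500 bp; the dashed line marks equal signals. The mir-279 summit, at 362 and 349, lies at the upper right, and summits such as those at mir-9374 (122 and 28.7) and mir-276a (16.3 and 91.4) lie far from the line.

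The strongest site near any miRNA gene was at the start of the primary transcript of mir-279 and mir-996. The gene lncRNA:CR31044 (RefSeq name pri-mir-279_mir-996) is 5106 bp long, and both hairpins lie in its exons (mir-279 at 3R 29215585 to 29215684). The summit was at 3R 29214439, 123 bp upstream of the TSS and 1146 bp upstream of the mir-279 hairpin, and the nearest protein-coding TSS, that of eEF1gamma, was 5733 bp away. Its signal was 700.4 in the pooled list, 362 in replicate 1 and 349 in replicate 2. It ranked 5 in the pooled list and 5 in each replicate. In flies mir-279 is known for restricting the formation of carbon dioxide sensing neurons. A second optimal summit lay 4801 bp upstream of mir-279 with a signal of 104, and replicates of 27.6 and 79.2.

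The densest site was that of mir-282. This gene (3L 3251022 to 3251118), in an exon of lncRNA:CR43626, had 9 optimal summits within 5 kb, 7 of them upstream. The strongest, at 3L 3247725, had a pooled signal of 428, with 186 in replicate 1 and 252 in replicate 2, and lay 3297 bp upstream of the hairpin and 290 bp from a TSS of the protein-coding gene CG43389. At 3L 3248794 the pooled signal was 415, with 206 and 209 in the replicates, and 546 bp separated the summit from the nearest TSS of lncRNA:CR43626. The one at 3L 3246495 had a pooled signal of 371, with 193 and 201. These 3 ranked 34, 37 and 55 in the pooled list, and replicate 2 was the higher replicate in each, with the widest gap at the first. Nearest to the first TSS of the host was the summit at 3L 3248995, 345 bp upstream of it, with 257 in the pooled list and 139 and 121 in the replicates. The remaining 5 had pooled signals between 101 and 133. Summits thus lay along the whole stretch from upstream of CG43389 across the host start to 946 bp past the hairpin start, and those at CG43389 cannot be assigned to the miRNA host from position alone.

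Sequence at 3 such non-coding promoters is shown because these are sites with no protein-coding TSS within 500 bp. Each run covers 75 bases on either side of the summit on dm6, from the genome sequence of RefSeq, plus strand, which is the strand of the hairpins. After the lists had been seen, 4 letter strings were searched on either strand, namely GAGAG (the core of GAGA factor sites), TATCGATA (the DRE), GTGTGT and CACGTG (an E box), and capitals mark any match. A match to GTGTGT can overlap another in a longer repeat, and TATCGATA and CACGTG read the same on both strands. The runs are the mir-279 promoter at 3R:29214364-29214514, the mir-282 promoter at 3L:3248920-3249070 and the mir-275 promoter at 2L:7423422-7423572.
mir-279 promoter: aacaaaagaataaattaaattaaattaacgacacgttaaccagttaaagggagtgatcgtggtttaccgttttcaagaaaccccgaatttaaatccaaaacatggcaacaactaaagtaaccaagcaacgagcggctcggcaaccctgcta
mir-282 promoter: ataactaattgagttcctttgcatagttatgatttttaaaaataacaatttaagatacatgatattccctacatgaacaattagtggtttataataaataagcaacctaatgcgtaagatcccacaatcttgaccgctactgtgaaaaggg
mir-275 promoter: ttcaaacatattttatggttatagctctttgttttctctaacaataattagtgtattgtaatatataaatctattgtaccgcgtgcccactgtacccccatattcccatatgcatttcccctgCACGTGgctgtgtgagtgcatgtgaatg

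None of the 4 strings was in the mir-279 and mir-282 windows, and the mir-275 window held CACGTG. Across the 69 windows of 151 bp, GAGAG was present in 17 (24.6%), beside 22.2% of all 2644 windows of that length. TATCGATA was in 1 (1.45%, beside 1.70%), GTGTGT in 6 (8.70%, beside 11.4%) and CACGTG in 2 (2.90%, beside 1.44%). Median GC content was 36.4% beside 35.1%. For each of the 4 strings the share of all optimal windows was inside the 95% Wilson interval of the 69. In the 8 windows at the strongest promoter summit of a non-coding host, which include the 3 printed, the counts were 1 for GAGAG (12.5%, interval 2.24 to 47.1), 0 for TATCGATA (interval 0 to 32.4), 3 for GTGTGT (37.5%, interval 13.7 to 69.4) and 2 for CACGTG (25%, interval 7.15 to 59.1). For GTGTGT and CACGTG the share of all optimal windows was below those intervals, which rest on 8 windows and on strings and sites chosen after the lists had been seen.

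Of the 37 non-coding hosts of miRNA genes, 8 had an optimal summit within 500 bp of a TSS (21.6%, interval 11.4 to 37.2). Among the 2483 ncRNA genes that hold no miRNA gene the share was 4.71%, but those genes were shorter, with a median span of 701 bp beside 6436 bp. The part that length or transcription plays in this difference was not tested. None of the 8 summits had a protein-coding TSS within 500 bp, 7 of them were upstream of the host TSS, and all 8 were in both replicates. RefSeq names 23 of the hosts as primary miRNA transcripts, and 4 of these were among the bound. They were the hosts of mir-279 and mir-996, of mir-8, of mir-14 and of mir-276a.

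At mir-14, known in flies for limiting cell death and for insulin and fat metabolism, the host lncRNA:CR43651 is 1097 bp long. A summit lay 129 bp upstream of its TSS (2R 9552715), with a pooled signal of 187 and 83.2 and 98.9 in the replicates. Another 2 optimal summits, with 116 and 125, lay 1885 and 279 bp upstream of the hairpin. For mir-8, the fly member of the mir-200 family, the summit was 162 bp upstream of a TSS of lncRNA:CR43650 (2R 16830527), with a pooled signal of 141. Replicate 1 gave 47.7 and replicate 2 gave 104.

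The host of mir-275, a miRNA needed for gut function in mosquitoes, is lncRNA:CR43857, and its hairpin lies next to that of mir-305 (mir-275 at 2L 7425795 to 7425892). Its promoter summit at 2L 7423497 was 323 bp upstream of the TSS with a pooled signal of 141, and with 84.3 and 63.0 in the replicates. Inside the host lay 2 further optimal summits, with 83.9 and 87.9. At mir-276a the promoter summit of lncRNA:CR46006 (3L 10363809), 210 bp upstream of a TSS, had a pooled signal of 91.3 and the uneven replicates given above. The summit at the TSS of lncRNA:CR43626, host of mir-282, is described above.

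The other 2 bound non-coding hosts were of different kinds. The stress-responsive nuclear RNA gene lncRNA:Hsromega, whose span holds mir-4951 20589 bp from the gene start, had a summit 79 bp downstream of a TSS with 139 in the pooled list and 84.4 and 68.5 in the replicates. The antisense RNA asRNA:CR46194, which holds mir-281-1 and mir-281-2 and is on the same strand as Oda, had a summit 417 bp upstream of a TSS with 98.4, and 28.9 and 69.3 in the replicates.

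Some primary transcripts had sites inside or beside them but not at the annotated start. The bantam gene (mir-ban, 3L 642208 to 642288), a growth promoting miRNA that blocks cell death, had optimal summits 1381 bp upstream (157; replicates 69.6 and 78.2) and 2148 bp downstream (132; 57.3 and 68.3) of the hairpin. The first of these was 1113 bp inside the nearest TSS of its host lncRNA:CR43334. At the let-7 cluster, whose 3 miRNAs mir-100, mir-let7 and mir-125 time the change from larva to adult, 1 summit lay 2578 bp upstream of mir-100 with 89.2 (50.8 and 33.9). It was 13139 bp inside lncRNA:let7C. At mir-9a, which keeps sensory organ precursor number stable, the site was 4355 bp upstream (3L 19560776) with 247 in the pooled list and 101 and 133 in the replicates. That summit was 414 bp from the TSS of another gene, lncRNA:CR44676, and lncRNA:CR45916, the mir-9a host, had no promoter summit.

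**Figure D4:**
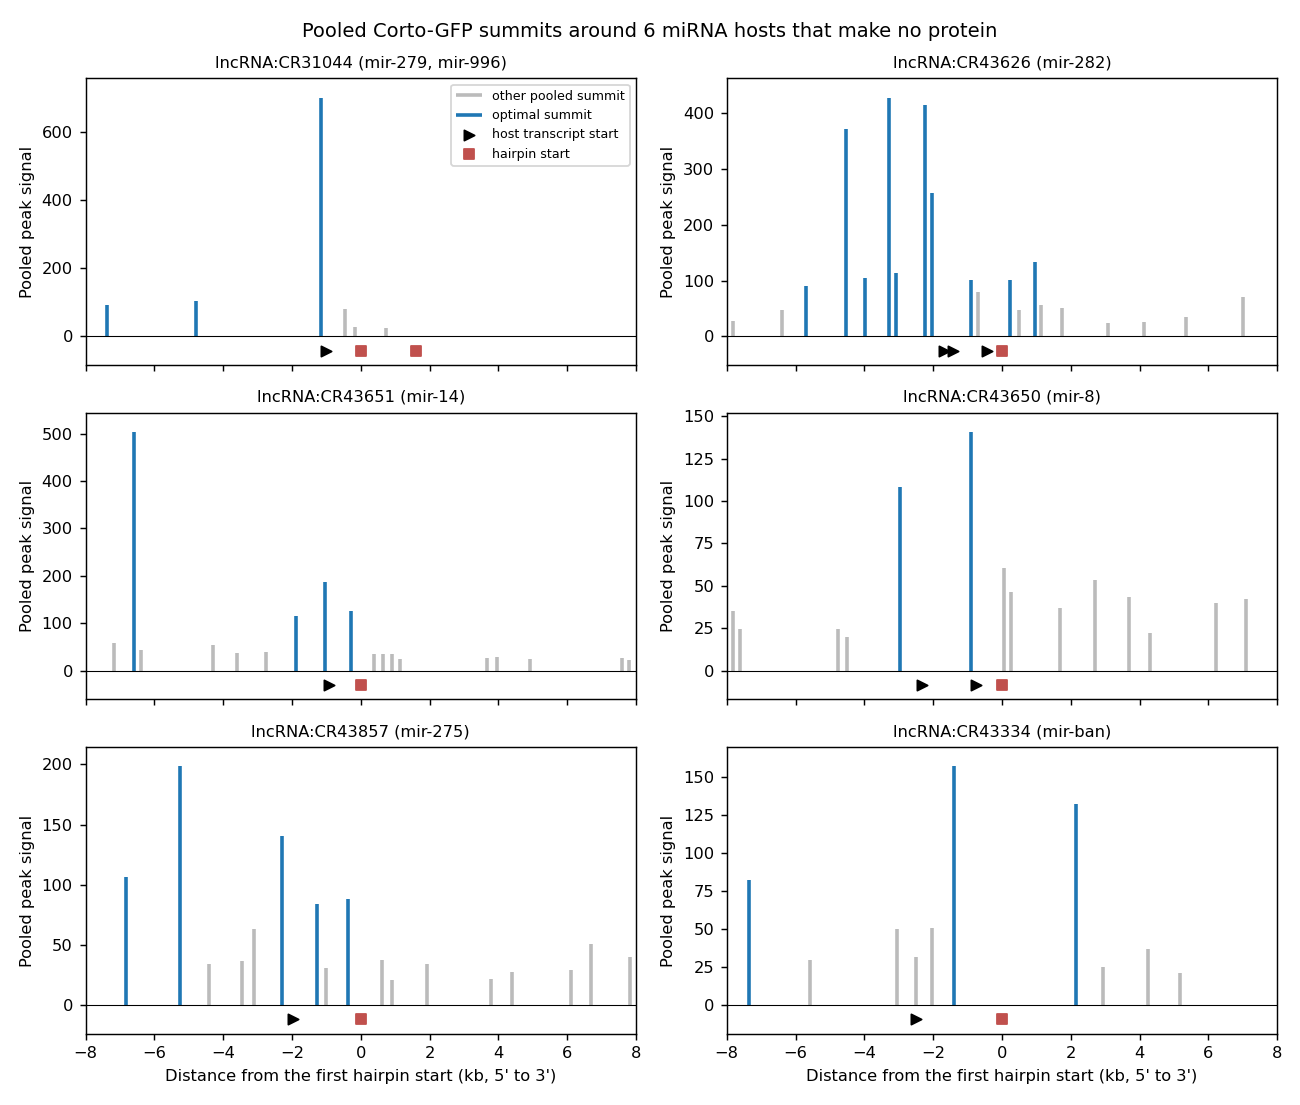
Pooled Corto-GFP summits within 8 kb of the first hairpin in 6 non-coding hosts picked after the values were seen, with the distance from the hairpin start in kb on the x axis (5′ to 3′) and the pooled signal on the y axis. Blue lines are optimal and grey lines other pooled summits, triangles are annotated host TSSs and squares hairpin starts; the tallest line near a host TSS is the mir-279 summit at 700.4.

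Most miRNA genes lie inside protein-coding genes on the same strand, and these hosts had a higher share of bound promoters than coding genes in general, a difference that was not tested. The 136 miRNA genes of this kind had 128 hosts, of which 24 had an optimal summit within 500 bp of a TSS (18.8%, interval 12.9 to 26.4), beside 9.90% of all protein-coding genes. The hosts were long, with a median span of 14094.5 bp beside 2166 bp, and had a median of 2 TSSs beside 1. Genes with a span of 10 kb or more, a split made after seeing the data, were bound in 17 of 73 hosts (23.3%, interval 15.1 to 34.2) and in 18.6% of the other coding genes of that length. Among genes under 10 kb the values were 7 of 55 hosts (12.7%, interval 6.30 to 24.0) and 8.41%. With 2 or more TSSs they were 21 of 72 (29.2%, interval 19.9 to 40.5) and 18.9%, and with 1 TSS 3 of 56 (5.36%, interval 1.84 to 14.6) and 6.58%. In 3 of the 4 splits the share of other coding genes was inside the interval of the hosts, and with 2 or more TSSs it was just under it.

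**Figure D5:**
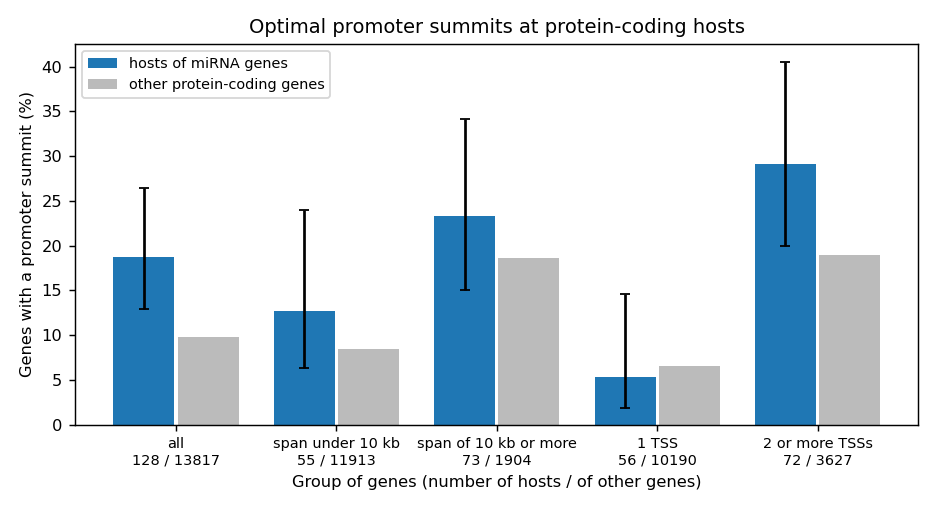
Percent of protein-coding hosts of miRNA genes (blue, with 95% Wilson intervals) and of other protein-coding genes (grey) with an optimal summit within 500 bp of a TSS, for all genes and split by span and by number of TSSs, with the number of hosts and of other genes below each pair. Hosts were at 18.8% in all, and at 5.36% among genes with 1 TSS.

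The promoter summits at the 24 bound hosts mostly lay a short way upstream of a TSS. Their positions were not compared with those of promoter summits at other coding genes. Of the strongest at each, 20 were upstream of the TSS, the median offset was −129.5 bp, and their signals had a median of 119 and a range of 89.3 to 406. In 23 of 24 both replicates held the summit within 200 bp, the exception being qtc, with 72.4 in replicate 2 and no entry in replicate 1. The distance from the host's start to its first hairpin ran from 610 bp in OstDelta to 114439 bp in Glut4EF. Bound TSSs were often internal, and the nearest promoter summit was within 5 kb of a hairpin start in 12 of the 24 and beyond it in the other 12, at 613 bp in OstDelta and up to 85375 bp in cv-c. In 21 hosts a bound TSS lay on the 5′ side of a hairpin. In the other 3, for, Oda and CG7029, each bound TSS lay past the hairpins, so transcripts from it would not contain them.

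Several of these hosts encode signalling proteins, a grouping for description only, since the functions of the hosts without a promoter summit were not counted. The strongest promoter was that of Btk, a Tec family tyrosine kinase gene and host of mir-2b-1, with a summit 181 bp upstream of a TSS (2L 8277883). Its signal was 406 in the pooled list, 199 in replicate 1 and 220.3 in replicate 2. The hairpin lies 42387 bp from the start of the gene, and mir-2b-1 itself had no optimal summit within 5 kb. The next was for, the cGMP-dependent protein kinase gene of foraging behaviour and host of mir-4972, with 231 in the pooled list and 157 and 101 in the replicates, at a TSS past the hairpin. In spi, which encodes the EGF receptor ligand Spitz, the cluster of mir-2a-1, mir-2a-2 and mir-2b-2 lies in an intron. Its farthest hairpin, that of mir-2a-2, begins 7754 bp from the gene start. The summit at 2L 19572891, 281 bp upstream of a spi TSS and 2627 bp upstream of mir-2b-2, had 218 in the pooled list and 93.3 and 123 in the replicates. Other kinase pathway hosts were Tlk, the tousled-like kinase gene (mir-4962, 157), Mob2, for a kinase cofactor (mir-4968, 142), and Pka-R2, for a regulatory subunit of protein kinase A (mir-4967, 89.3). The promoter summit of cv-c, host of mir-2281, had a pooled signal of 99.3.

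Among hosts that encode regulators of transcription, E2f1, the cell cycle transcription factor gene, holds mir-998 and mir-11 in an intron. Its promoter summit had a pooled signal of 123, with 75.4 and 42.5 in the replicates. The optimal summit nearest to these hairpins was a different one, 2653 bp downstream of mir-998 and 47 bp from the TSS of InR, the insulin receptor gene (111; replicates 55.6 and 61.5). The TSC22 family gene bun, host of mir-967, had 4 promoter summits, the strongest with 151 (66.2 and 85.5). Its 91072 bp also held 10 optimal summits in all. In kis, which encodes a chromatin remodeller of the Trithorax group and holds mir-965, the promoter signal was 98.9, with 29.7 and 70.3. The gene jigr1, host of mir-92a and mir-92b, had 94.2, with 25.8 and 65.0. Glut4EF, host of mir-9371, had 95.8, with 30.4 in replicate 1 and a higher value in replicate 2. In these last 3 the signal of replicate 2 was more than that of replicate 1, whereas in E2f1 replicate 1 was higher.

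The remaining bound hosts have housekeeping, membrane or unnamed functions. RpS23, a ribosomal protein gene and host of mir-308, had a summit 4 bp downstream of a TSS with 107, and OstDelta, an oligosaccharyltransferase subunit gene and host of mir-3643, one 3 bp upstream with 101. Oda, the ornithine decarboxylase antizyme gene and host of mir-281-1 and mir-281-2, had 112. Kpc1, a ubiquitin ligase gene (mir-3644), had 99.0, and PAPLA1, a phospholipase gene (mir-4984), had 184. The ABC transporter genes Atet (mir-1005) and MRP (mir-9382) had 122 and 116. The talin gene rhea (mir-190) had 130.2 in the pooled list but 13.8 in replicate 1 and 82.2 in replicate 2. That was the widest gap among the bound protein-coding hosts with both values. The genes qtc (mir-2495), CG5953 (mir-4943), CG3860 (mir-1009) and CG7029 (mir-4953) had 114, 179.7, 152 and 94.4.

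At other loci with strong summits the nearest promoter was often that of a neighbouring gene. At mir-1004 the summit 3835 bp downstream (2L 3771456, 294; replicates 127 and 147) was 244 bp from a TSS of bowl, a zinc finger transcription factor gene. Near mir-955 the summit 4178 bp downstream (230.2; 142 and 87.4) was 121 bp from a TSS of CG14968. At mir-87 the strongest, 3707 bp upstream (183; 97.9 and 91.7), was 42 bp from a TSS of CG13126. At mir-1006 the summit 3942 bp downstream (2L 16720916, 268; 126 and 149) had no TSS within 500 bp, and the nearest coding TSS was that of Cyt-c-p at 984 bp. Both optimal summits of mir-33, which lies in an intron of SREBP as its relative does in mammals, were 550 and 789 bp inside the nearest SREBP TSS, with signals of 161 and 135. At mir-9377 the strongest summit lay 1446 bp downstream with 224 (111 and 109.5), again inside Tis11. At mir-4943 it was the CG5953 promoter summit given above.

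Within 5 kb, intronic and exonic miRNA genes had similar shares. Of 100 miRNA genes placed in introns 20 had an optimal summit within 5 kb (20%, interval 13.3 to 28.9), and of 82 that lie in an exon of at least 1 transcript 21 had (25.6%, interval 17.4 to 36.0). Within 500 bp the counts were 2 of 100 (2%, interval 0.550 to 7.00) and 6 of 82 (7.32%, interval 3.40 to 15.1). Hairpins that fill a whole intron, as mirtrons do, numbered 34, of which 6 had a summit within 5 kb and none within 500 bp (interval 0 to 10.2%). By kind of host and within 5 kb, genes inside a protein-coding host had 29 of 136 (21.3%, interval 15.3 to 28.9) and those inside a non-coding host 12 of 46 (26.1%, interval 15.6 to 40.3). Those antisense to another gene had 2 of 27 (7.41%, interval 2.06 to 23.4) and those between genes 5 of 51 (9.80%, interval 4.26 to 21.0). The intervals of these host classes overlap each other.

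The X chromosome stood lowest of the large arms. Of its 58 miRNA genes 3 had an optimal summit within 5 kb (5.17%), beside 18.5% of its protein-coding genes, whereas on 2L the count was 19 of 56 (33.9%, beside 24.4%). On 2R it was 10 of 55 (18.2%, beside 23.7%), on 3L 7 of 31 (22.6%, beside 25.1%), on 3R 8 of 58 (13.8%, beside 22.9%) and on chromosome 4 it was 1 of 2 (beside 13.8%). Counted by locus, the X had 3 of 39 and 2L 14 of 40. In the pooled list 44 of the 58 X-linked genes had a summit (75.9%), beside 66.0% of X-linked protein-coding genes.

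Among 31 well-studied miRNA genes, a list drawn up by reputation and with earlier results of these data known, 12 had an optimal summit within 5 kb (38.7%, interval 23.7 to 56.2), beside 36 of the other 229 (15.7%, interval 11.6 to 21.0). Those 12 were mir-275, mir-let7, mir-2a-1, mir-14, mir-8, mir-ban, mir-282, mir-276a, mir-9a, mir-33, mir-11 and mir-279. The list is not a random sample of miRNA genes. The muscle miRNA mir-1 and mir-31a had no summit within 5 kb even in the pooled list. The strongest pooled summit of mir-124, the nervous system miRNA, had a signal of 20.6 and ranked 27813. For mir-10, in the Antennapedia complex, it was 53.1, and for mir-iab-4 and mir-iab-8, read from opposite strands of the bithorax complex, the same summit had 20.3. Somewhat higher pooled signals, all below the optimal set, were found near mir-12 (63.7), mir-34 (62.4), mir-92a (61.9), mir-310 (59.8) and mir-278 (49.4). Lower ones were found near mir-7 (45.5), mir-9c and mir-306 (37.6 each, from 1 shared summit), mir-13b-2 (33.8), mir-184 (33.5), mir-bft, also called mir-263a (32.3), and mir-285 (27.9).

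A list of 30 genes of small RNA production and action, which also holds siRNA and piRNA factors, messenger RNA decay genes and a chaperone gene, had 5 bound promoters (16.7%, interval 7.34 to 33.6), beside 9.90% of all protein-coding genes, which lies inside that interval. The 5 were Hsp83, the Hsp90 chaperone gene used in loading Argonaute (pooled signal 225), Tudor-SN (143), r2d2, the partner of Dicer-2 (111), Nup358, a nuclear pore gene (88.3), and DCP2, the decapping enzyme gene (84.2). In the pooled list 16 of the 30 had a promoter summit, beside 36.2% of the starts of all protein-coding genes, a narrower measure than any TSS. Among those with none even there were drosha, pasha, Dcr-1, loqs, the Dicer-1 partner, and Ranbp21, the exportin gene. At AGO1, the Argonaute of miRNAs, and gw, which encodes its silencing partner GW182, the promoter summits were below the optimal set, with pooled signals of 77.2 and 80.4.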

How the data were processed

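ChIP-seq peak lists of 2 biological replicates of 1 group were used. Per the labels, chromatin was sonicated to 200 to 800 bp. The authors deposited narrowPeak lists per replicate and pooled (30000 entries each, peaks and background, made from alignments with a control per the text notes deposited with them) and an optimal set of 2644 peaks selected by the irreproducible discovery rate. The deposited peak signal (column 7) has no stated scale. No source used here names the aligner, the caller or its thresholds, and the control was not analysed here. Only the dm6 lists were analysed here.

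Ensembl release 115 genes (transposable elements left out) were read with pandas 2.3.3, and sequences came from the RefSeq genome of the same assembly. Ensembl's 481 separate entries for mature miRNAs were left out, so that they do not count as genes or TSSs. A summit counted as near within 500 bp or 5 kb of the gene start, as a promoter summit within 500 bp of any TSS, and as found in a replicate within 200 bp. A host held the whole hairpin on the same strand. Shares have 95% Wilson intervals, which cover counting error only, and no test was run. The summit search was checked on simulated positions.

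The members, the lists of well-studied miRNAs and of small RNA pathway genes and the settings were chosen with earlier results of these data known. Named genes were all with an optimal summit within 500 bp, the 12 loci with the strongest summit within 5 kb, all bound coding hosts, the listed well-studied miRNAs and bound pathway genes; further loci, the non-coding hosts, the 4 letter strings and the sequences shown were picked after their values were seen. Alternatives changed windows, the peak set, the replicates, locus joining and the host rule.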

Additional observations from a re-analysis of the deposited data

How the results depend on the processing

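Of 46 alternatives to the 8 shares, 42 were planned and 4 were added after seeing the data, and 25 stayed within the 95% interval of the reported value. Window size moved the shares by construction. Optimal summits were near 1.54% of miRNA genes at 250 bp, 9.23% at 2 kb and 30.4% at 10 kb, and near 11.1% and 34.2% of loci at 2 and 10 kb. Pooled summits were near 13.8% at 250 bp, 40% at 1000 bp, 55.8% at 2 kb and 87.7% at 10 kb. The stronger part of the optimal set gave 1.15% of genes within 500 bp, 11.9% of genes and 13.1% of loci within 5 kb, 10.9% of protein-coding hosts and 6.67% of small RNA pathway genes. The strongest entries of the pooled list gave 8.46% within 500 bp and 43.5% within 5 kb. Of summits within 500 bp of a miRNA gene, 22.2% were at a protein-coding TSS. Hosts were bound in 12.7% with a span under 10 kb, 5.36% with 1 TSS and 29.2% with 2 or more. With 1 replicate left out, the shares ranged from 1.92% to 3.08% within 500 bp, from 18.1% to 20.4% within 5 kb, from 24.2% to 26.9% and from 78.1% to 82.7% for pooled summits, from 19.1% to 22.1% of loci, from 18.0% to 21.9% of protein-coding hosts, from 34.3% to 43.6% for summits at a protein-coding TSS, and at 16.7% of small RNA pathway genes. No paired analysis was possible because there is 1 group. Depth is unknown, so a missing summit does not show that Corto-GFP was absent.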
